A study of Mus musculus with 6 samples.

Results

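Transcripts of the class I phosphoinositide 3-kinases (PI3Ks) and of the SHIP phosphatases were followed in mouse erythroid cultures given NUP-17d, a small molecule that the study describes as an inhibitor of Plek2. The set was a list of 9 symbols among the 17060 genes listed in any culture. It held the catalytic subunits Pik3ca, Pik3cb, Pik3cd and Pik3cg, the regulatory subunits Pik3r1, Pik3r2 and Pik3r5, and the lipid phosphatases Inpp5d and Inppl1. No cutoff on measured values was used to build the list, but earlier results of these data were known when it was chosen. BM cells of WT mice were depleted of lineage-positive cells, and the remaining cells were grown in EPO-containing medium with NUP-17d (3 cultures) or with its vehicle DMSO (3 cultures) for 48 hours. All 6 cultures were WT and received EPO. The age of the mice, and whether each culture came from its own animals, are not given in the sources used here, so p-values measure only the spread between these cultures, which may be technical. The labels name the cells erythroblasts, and all 10 genes of an erythroid marker list were listed in every culture. Markers of other blood cells, such as neutrophils and macrophages, were also found. Being listed therefore does not tell the cell types apart, and the levels of these markers are given below.

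Class I PI3Ks add a phosphate to the D3 position of a membrane phosphoinositide, and the product recruits proteins with PH domains, such as Akt, to the membrane. A class IA enzyme pairs a catalytic subunit (from Pik3ca, Pik3cb or Pik3cd) with a regulatory subunit (from Pik3r1, Pik3r2 or Pik3r3) that stabilizes the catalytic subunit, holds it inactive and binds phosphotyrosine on activated receptors and adaptors. The class IB enzyme, from Pik3cg with Pik3r5 or Pik3r6, responds to G protein-coupled receptors, and SHIP1 (Inpp5d, made mainly in blood cells) and SHIP2 (Inppl1) remove the 5-phosphate from the lipid product.

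The deposited tables hold, per gene and culture, an expected count (the authors' estimate of its reads, which need not be whole) and an FPKM value, which divides that count by the length of the transcript and the size of the library. The expected counts summed to between 20076409 and 20419018 per culture. Hemoglobin transcripts took 18.3% to 20.3% of the counts with DMSO and 11.8% to 13.1% with NUP-17d, so at the same total the NUP-17d libraries held more reads of all other genes. Changes between groups are therefore given on counts scaled per library by edgeR's TMM factors (CPM, a share of the scaled library total), which correct for library composition. These factors were 0.8865 to 0.9302 with DMSO and 1.082 to 1.107 with NUP-17d, and the part of hemoglobin in that difference was not tested. Levels of different genes are compared on FPKM, which is per length. A gene was called higher or lower where edgeR's quasi-likelihood test gave a Benjamini-Hochberg adjusted p under 0.05 over all 12306 genes left after its removal of low counts. All 9 members were listed in every culture and passed the filter. Each value with an error is a mean ± SD of 3 cultures, and counting error is within it.

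The regulatory subunit transcript Pik3r1 fell with NUP-17d, and 5 members rose by small amounts (Pik3cd, Pik3cg, Pik3r2, Inpp5d and Inppl1). The other 3 members, Pik3ca, Pik3cb and Pik3r5, did not pass the test. Over all tested genes 35.3% were called, 16.4% higher and 18.9% lower, so calls were common among genes of any kind. The median log2 fold change of the 9 members was 0.11, beside 0.01 over all tested genes. CPM of the groups did not overlap for 7 of the 9 members, and for 46.0% of all tested genes. With libraries scaled by totals only, where the median log2 fold change of all genes was 0.28, the 8 members other than Pik3r1 had values of 0.18 to 0.54 and were all called higher.

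**Figure D1:**
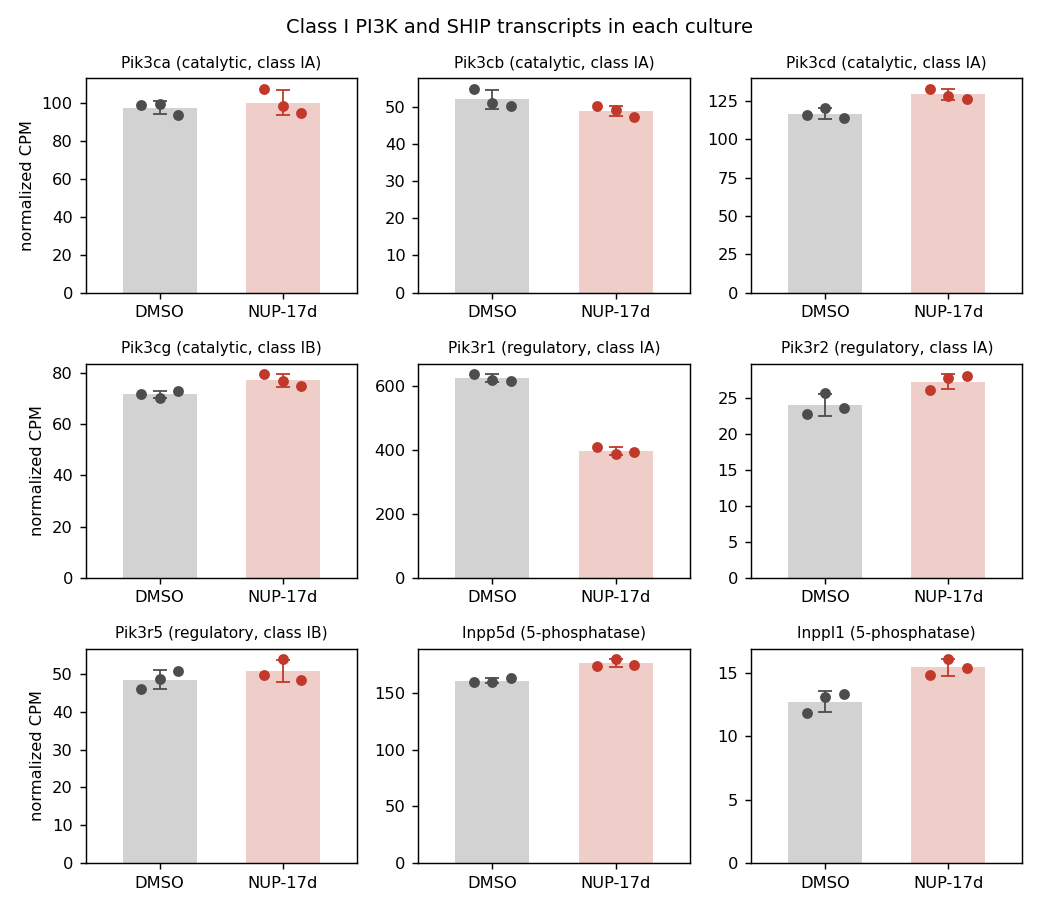
Normalized CPM (y axis, from 0) of each member in the 3 DMSO and 3 NUP-17d cultures; points are cultures, bars are means and error bars are SDs. Pik3r1 lies at 617.1 to 639.8 with DMSO and at 387.6 to 410.5 with NUP-17d, while the groups of Pik3ca and Pik3r5 overlap.

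Pik3r1 (Entrez 18708) encodes the p85-type regulatory subunit and lies on the minus strand of chr13:101680761-101768217 (RefSeq, GRCm38.p6). The files count 2 transcripts for it. RefSeq starts them 75587 bases apart, at position 101768217 and at position 101692630, and the second start lies inside the gene, so that its transcript lacks the upstream exons. The 250 bases before each start are printed 5′ to 3′ on the strand of the gene, with every CpG in capitals, because Pik3r1 is the member that fell and the starts have unlike sequence.
Pik3r1 upstream start, chr13:101768218-101768467, minus strand: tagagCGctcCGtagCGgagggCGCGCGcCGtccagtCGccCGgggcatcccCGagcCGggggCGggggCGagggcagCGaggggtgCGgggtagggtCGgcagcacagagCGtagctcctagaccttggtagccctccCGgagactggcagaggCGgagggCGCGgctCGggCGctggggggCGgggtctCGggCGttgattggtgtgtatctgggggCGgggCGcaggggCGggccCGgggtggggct
Pik3r1 internal start, chr13:101692631-101692880, minus strand: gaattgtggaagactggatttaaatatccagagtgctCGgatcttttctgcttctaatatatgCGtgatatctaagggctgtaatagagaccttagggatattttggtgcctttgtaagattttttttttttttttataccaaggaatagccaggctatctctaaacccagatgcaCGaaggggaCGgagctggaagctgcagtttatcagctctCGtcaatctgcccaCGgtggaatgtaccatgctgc
The window of the upstream start held 30 CpGs with a GC content of 76.4%, and 5.94% of the RefSeq promoter windows of all genes held at least as many CpGs over the same length. The window of the internal start held 6 CpGs with a GC content of 42.4%, and 6 is also the median over all windows.

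The DMSO cultures had Pik3r1 at 639.8, 620.2 and 617.1 CPM, and the NUP-17d cultures had it at 410.5, 387.6 and 395.3 CPM. The lowest DMSO culture was thus far above the highest NUP-17d culture. Pik3r1 fell from 625.7 ± 12.3 to 397.8 ± 11.6 CPM, a change of -36.4% (log2 fold change -0.65, SE 0.0348, 95% interval -0.73 to -0.58, edgeR adjusted p = 3.43e-14). Of all tested genes, 297 (2.41%) had a lower log2 fold change. Pik3r1 was also called lower when libraries were scaled by their totals only, with a log2 fold change of -0.39 (edgeR adjusted p = 1.94e-10).

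Erythroid markers fell in the same cultures. The summed CPM of the 10 genes of that list was 23689 to 25454 with DMSO and 14552 to 15397 with NUP-17d, a change of -38.1%, and all 10 genes were called lower. In bulk RNA, fewer cells of a type and less RNA per cell cannot be told apart. The summed megakaryocyte markers went from 448.7–495.9 to 519.3–539.0 CPM (5 of 7 genes called higher), and the stem and progenitor markers from 229.1–233.8 to 238.4–252.1 CPM (2 of 6 tested genes higher). Monocyte and macrophage markers summed to 3266–3522 CPM with DMSO and 3602–3909 CPM with NUP-17d (3 of 12 genes higher and 5 lower). Most of that sum and of its rise was Lyz2, which went from 2387 ± 91.8 to 2700 ± 118.2 CPM, and the median log2 fold change of the list was -0.046. Neutrophil markers overlapped between the groups, at 4137–4301 and 4245–4525 CPM (3 of 12 genes higher and 1 lower). Lymphoid markers summed to 29.2–32.5 and 27.0–27.3 CPM (0 of 7 tested genes higher and 2 lower), with 5 of the 9 genes under 1 CPM on average. Mast cell and basophil markers summed to 315.6–328.3 and 292.4–302.6 CPM (1 of 7 tested genes higher and 3 lower). No marker was at 0 in all cultures, and the part of these markers in the changes of the members was not tested.

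The files also give each gene's mean transcript length per culture, which moves when the authors' estimate shifts reads between long and short transcripts. For Pik3r1 it was 5912.79, 5916.65 and 5912.34 bases with DMSO and 5962.38, 5950.14 and 5959.67 bases with NUP-17d. All NUP-17d cultures were above all DMSO cultures, by 43.5 bases between the means (2-sided exact permutation test, p = 0.1, the smallest that 3 cultures against 3 allow). Lengths did not overlap between the groups for 11.4% of the 4611 genes with several transcripts and a varying length. A limma test of log2 length over those genes, chosen after these values were seen, gave Pik3r1 an adjusted p of 0.085, so the shift did not pass, and it called 1 gene (0.0217%). In the other 4 members with a varying length (Pik3cd, Pik3cg, Inpp5d and Inppl1) the groups overlapped.

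**Figure D2:**
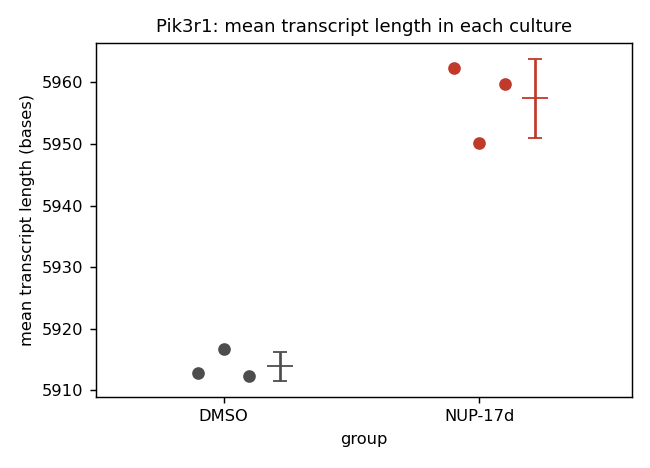
Mean transcript length of Pik3r1 in bases (y axis, not from 0) in each culture of both groups; points are cultures, and the bars beside them are means with SDs. The DMSO cultures lie near 5914 bases and the NUP-17d cultures near 5957 bases, with no overlap.

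Pik3r2 (Entrez 18709, chr8:70768176-70776712, minus strand), the other class IA regulatory member, moved the opposite way. Its CPM was 22.8, 25.8 and 23.6 with DMSO and 26.1, 27.8 and 28.1 with NUP-17d. The highest DMSO culture and the lowest NUP-17d culture were close. Pik3r2 rose from 24.1 ± 1.53 to 27.3 ± 1.05 CPM, a change of 13.5% (log2 fold change 0.18, SE 0.0588, edgeR adjusted p = 0.0169). The call was lost without DMSO culture 1 (adjusted p = 0.0956), DMSO culture 3 (0.0671), NUP-17d culture 2 (0.05, not under the threshold) or NUP-17d culture 3 (0.0651) in edgeR, and with DESeq2 (0.119). Pik3r2 shares exon sequence on the opposite strand with 6330537M06Rik, which the files do not list.

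Within each culture the ratio of Pik3r1 to Pik3r2 was taken on FPKM, where library scaling cancels. The ratio was 14.9, 12.8 and 13.9 with DMSO and 8.29, 7.39 and 7.43 with NUP-17d. Every NUP-17d culture was below every DMSO culture, with a log2 difference of -0.85 (2-sided exact permutation test, p = 0.1, adjusted p = 0.16 over 8 ratios). No ratio could pass after adjustment, since 0.1 is the smallest p of this design. Pik3r1 made up 93.3% ± 0.488 of the FPKM of both class IA regulatory members with DMSO and 88.5% ± 0.649 with NUP-17d, so it remained the main regulatory transcript. Pik3r3, the third class IA regulatory gene, was at 2.22 ± 0.359 CPM with DMSO and 1.64 ± 0.383 CPM with NUP-17d (log2 fold change -0.44, edgeR adjusted p = 0.111), and of the alternatives that tested it, it passed only without NUP-17d culture 2 (log2 fold change -0.63, adjusted p = 0.0447).

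Among the class IA catalytic subunits, Pik3cd was called higher and neither Pik3ca nor Pik3cb was called. Pik3cd (Entrez 18707, chr4:149649168-149702566, minus strand) encodes p110δ, the class IA isoform found mainly in blood cells. It stood at 115.9, 120.6 and 114.0 CPM with DMSO and at 133.2, 128.6 and 126.5 CPM with NUP-17d. The groups did not overlap. Pik3cd rose from 116.8 ± 3.37 to 129.4 ± 3.40 CPM, a change of 10.8% (log2 fold change 0.15, SE 0.0373, edgeR adjusted p = 0.00277).

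Pik3ca (Entrez 18706, chr3:32397065-32466112, plus strand) encodes p110α, a broadly expressed isoform. It measured 98.9, 99.5 and 93.3 CPM with DMSO and 107.4, 98.4 and 94.4 CPM with NUP-17d. The groups overlapped, and NUP-17d culture 1 was the highest of the 6. The means were 97.2 ± 3.46 and 100.1 ± 6.66 CPM (log2 fold change 0.04, 95% interval -0.05 to 0.13, edgeR adjusted p = 0.501), and without that culture the log2 fold change was -0.01.

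Pik3cb (Entrez 74769, chr9:99038402-99140235, minus strand) encodes p110β, which G protein-coupled receptors can also activate. Its values were 54.9, 51.0 and 50.2 CPM with DMSO and 50.1, 49.1 and 47.4 CPM with NUP-17d. The groups were just apart, with the lowest DMSO and the highest NUP-17d culture nearly equal. The means were 52.1 ± 2.52 and 48.9 ± 1.36 CPM (log2 fold change -0.09, edgeR adjusted p = 0.131). Without DMSO culture 1, the highest, the log2 fold change was -0.05 (edgeR adjusted p = 0.477). The sign of the Pik3cb value depended on scaling. With library totals only its log2 fold change was 0.18 (edgeR adjusted p = 0.00254), where the median of all genes was 0.28.

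**Figure D3:**
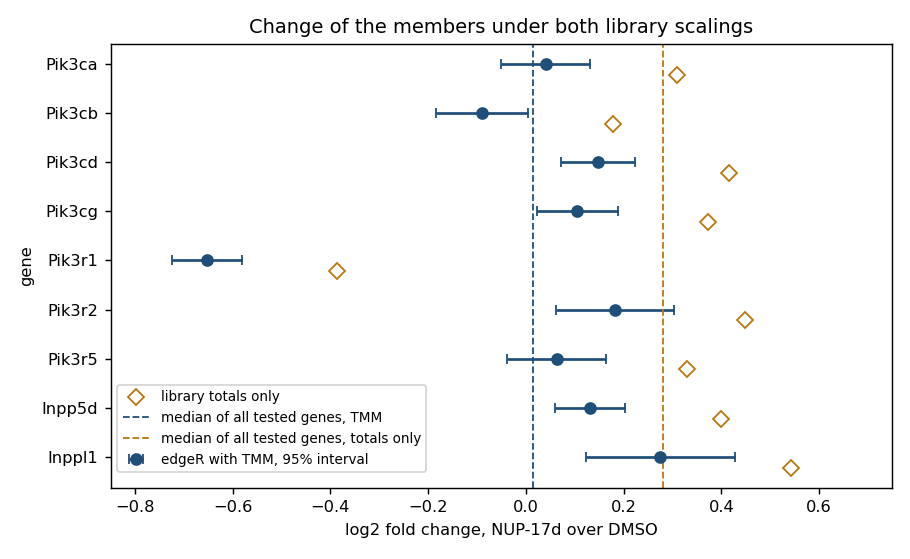
Log2 fold change of NUP-17d over DMSO (x axis) for each member (y axis), with 95% intervals for edgeR with TMM (filled) and values for scaling by library totals only (open). Dashed lines mark the median of all tested genes, 0.01 with TMM and 0.28 with totals only; Pik3r1 and Pik3cb lie below that median under both scalings.

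Within cultures, the ratio of Pik3cd to Pik3ca was 2.17, 2.23 and 2.27 with DMSO and 2.29, 2.42 and 2.50 with NUP-17d. The ratio of Pik3cb to Pik3ca was 1.02, 0.945 and 0.993 with DMSO and 0.861, 0.920 and 0.927 with NUP-17d. Neither ratio overlapped between the groups, with log2 differences of 0.11 and -0.13 (2-sided exact permutation tests, each p = 0.1, adjusted p = 0.16). Pik3cd made up 42.8% ± 0.804 of the FPKM of the 4 catalytic members with DMSO and 45.0% ± 0.488 with NUP-17d. Pik3cb made up 19.0% ± 0.727 and 16.9% ± 0.186, while Pik3ca stood at 19.2% ± 0.385 and 18.8% ± 0.608.

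The summed class IA regulatory transcripts (Pik3r1 and Pik3r2) were set against the summed class IA catalytic transcripts in the same culture. This ratio was 2.49, 2.43 and 2.51 with DMSO and 1.55, 1.55 and 1.61 with NUP-17d. Regulatory transcripts exceeded catalytic ones in all 6 cultures, and by less in each NUP-17d culture than in any DMSO culture. The mean went from 2.48 ± 0.0431 to 1.57 ± 0.0377, a log2 difference of -0.66 (2-sided exact permutation test, p = 0.1, adjusted p = 0.16). Leaving out any 1 culture gave log2 differences of -0.68 to -0.65. These are transcript ratios, and protein was not measured here.

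**Figure D4:**
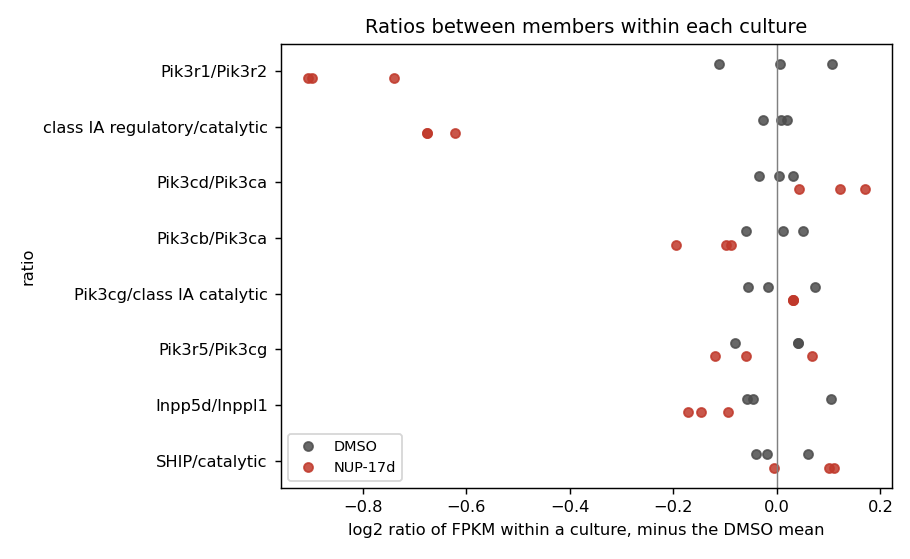
Log2 ratio of FPKM within each culture, minus the DMSO mean (x axis), for the 8 ratios between members (y axis); points are cultures, dark for DMSO and red for NUP-17d. Pik3r1/Pik3r2 and the class IA regulatory to catalytic ratio lie lowest with NUP-17d, at log2 differences of -0.85 and -0.66, and 3 ratios overlap between the groups.

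Of the class IB pair, Pik3cg was called and Pik3r5 was not. Pik3cg (Entrez 30955, chr12:32173397-32208677, minus strand), the p110γ catalytic subunit, was at 71.7, 70.1 and 73.0 CPM with DMSO and at 79.6, 76.8 and 74.7 CPM with NUP-17d. The groups did not overlap, and the margin was narrow. Pik3cg rose from 71.6 ± 1.48 to 77.0 ± 2.49 CPM, a change of 7.6% (log2 fold change 0.11, SE 0.0404, edgeR adjusted p = 0.0438). Of the calls of the 6 members, this one was lost under the most alternatives. In edgeR it was lost without DMSO culture 1 (adjusted p = 0.0855), 2 (0.165) or 3 (0.0573) and without NUP-17d culture 1 (0.163) or 2 (0.0757), and also with RLE factors in place of TMM (0.0532). DESeq2 did not call it either (adjusted p = 0.172).

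Pik3r5 (Entrez 320207, chr11:68432125-68497849, plus strand) encodes p101, the regulatory partner of p110γ. Its values were 46.0, 48.9 and 51.0 CPM with DMSO and 49.8, 54.1 and 48.6 CPM with NUP-17d. The groups overlapped, with means of 48.6 ± 2.51 and 50.8 ± 2.89 CPM (log2 fold change 0.06, 95% interval -0.04 to 0.16, edgeR adjusted p = 0.345). The ratio of Pik3r5 to Pik3cg also overlapped, at 1.04 ± 0.0510 and 1.01 ± 0.0648 (2-sided exact permutation test, p = 0.7, adjusted p = 0.7). Pik3cg relative to the class IA catalytic sum overlapped as well, at 0.234 ± 0.0110 and 0.239 ± 0.000215 (2-sided exact permutation test, p = 0.4, adjusted p = 0.457). Pik3r6, the other class IB regulatory gene, measured 13.1 ± 1.20 and 11.9 ± 0.379 CPM (edgeR adjusted p = 0.19). Pik3r3 and Pik3r6 were named after their values were seen, because they complete the regulatory subunits.

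Both SHIP phosphatases were called higher. Inpp5d (Entrez 16331, chr1:87620312-87720510, plus strand) was at 159.7, 159.9 and 164.0 CPM with DMSO and at 174.2, 180.5 and 175.1 CPM with NUP-17d. The groups were clearly apart relative to their spread. Inpp5d rose from 161.2 ± 2.45 to 176.6 ± 3.39 CPM, a change of 9.6% (log2 fold change 0.13, SE 0.0347, edgeR adjusted p = 0.00398).

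Inppl1 (Entrez 16332, chr7:101822632-101838226, minus strand), the member with the lowest FPKM, was at 11.8, 13.1 and 13.3 CPM with DMSO and at 14.8, 16.1 and 15.4 CPM with NUP-17d. All NUP-17d cultures were above all DMSO cultures. Inppl1 rose from 12.7 ± 0.845 to 15.4 ± 0.681 CPM, a change of 21.0% (log2 fold change 0.28, SE 0.0742, edgeR adjusted p = 0.00473), and this call was lost with DESeq2 (adjusted p = 0.0595). Its exons overlap Phox2a and Gm10602 on the opposite strand. Phox2a had 0.0176 CPM on average with DMSO and 0 with NUP-17d, and Gm10602 was not listed.

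The ratio of Inpp5d to Inppl1 was 13.2, 11.8 and 11.9 with DMSO and 11.5, 10.9 and 11.1 with NUP-17d. It was lower in each NUP-17d culture than in any DMSO culture, with a log2 difference of -0.14 (2-sided exact permutation test, p = 0.1, adjusted p = 0.16). DMSO culture 1 stood above the other two, and without it the log2 difference was -0.09. The summed SHIP transcripts relative to the 4 catalytic transcripts overlapped between the groups, at 0.627 ± 0.0230 and 0.657 ± 0.0289 (2-sided exact permutation test, p = 0.2, adjusted p = 0.267).

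Levels were ordered on FPKM as deposited, within each group. With DMSO, Pik3r1 was highest at 94.6 ± 0.947 FPKM, and 94.0% of tested genes had a lower level. Inpp5d followed at 29.3 ± 1.02 FPKM and Pik3cd at 21.6 ± 0.936 FPKM, each apart from its neighbours in all 3 cultures. Pik3r5 (10 ± 0.718), Pik3ca (9.73 ± 0.397), Pik3cb (9.60 ± 0.260) and Pik3cg (9.58 ± 0.268) had FPKM levels that did not differ beyond their spread. Pik3r2 at 6.84 ± 0.596 FPKM and Inppl1 at 2.39 ± 0.222 FPKM were lowest.

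The order with NUP-17d began with the same 3 genes, Pik3r1 at 72.0 ± 2.26 FPKM, Inpp5d at 38.8 ± 1.03 FPKM and Pik3cd at 29.0 ± 0.931 FPKM. Pik3r5 (12.6 ± 0.842), Pik3cg (12.4 ± 0.526) and Pik3ca (12.1 ± 0.904) overlapped in FPKM, and Pik3cb at 10.9 ± 0.424 FPKM stood below them. The margin was very narrow, with the highest Pik3cb culture at 11.22 FPKM and the lowest Pik3ca culture at 11.23 FPKM. Pik3r2 at 9.37 ± 0.316 FPKM and Inppl1 at 3.49 ± 0.170 FPKM were again lowest. These FPKM values hold no correction for composition. The rise of the FPKM of 8 members from DMSO to NUP-17d therefore does not give the size, or for Pik3cb the sign, of their change on the CPM scale. Expected counts of Pik3ca, Pik3r1 and Pik3r5 were not whole, as estimates are where reads match several genes, and their levels are less certain.

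RefSeq promoter windows, 250 bases before and 50 after a start, were matched for all 9 members, 14 windows in all, and searched on both strands for motifs of erythroid and blood factors. The ETS motif GGAAGT was in 5 of the 14 windows (Pik3ca, Pik3cd, Inpp5d and both of Pik3cg, whose windows overlap) and in 23.8% of all 32851 windows. The GATA motif AGATAA was in 1 window, of Pik3cd, and in 11.2% of all. The forkhead motif TGTTTAC was in 1 window, of Pik3cg, and in 3.65% of all. The Klf1 motif CACACCC (7.95% of all windows) and the STAT motif TTCNNNGAA (8.30%) were in 0 member windows. No motif was found in the Pik3r1 windows, which says only that these letters are not there.

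The other phosphoinositide genes were taken as 4 lists, which gave the setting of the members. The calls in each list are to be read beside all tested genes, of which 16.4% were called higher and 18.9% lower. No list was tested as a set. The regulators and adaptors of class I PI3K, such as receptors, Ras proteins and docking proteins, had 24 of 25 genes tested, of which 4 were called higher and 2 lower, with a median log2 fold change of 0.02. Epor, the EPO receptor, stood at 67.4, 67.6 and 71.1 CPM with DMSO and at 52.5, 49.4 and 56.3 CPM with NUP-17d (log2 fold change -0.38, edgeR adjusted p = 2.44e-07). With library totals only its log2 fold change was -0.12 (edgeR adjusted p = 0.0416). It is also one of the erythroid markers above. Gab2, a docking protein that binds p85, went from 32.9 ± 1.41 to 39.9 ± 2.39 CPM (log2 fold change 0.28, edgeR adjusted p = 0.000143). Pik3ip1, a membrane protein that binds and restrains PI3K, went from 11 ± 0.245 to 14.2 ± 0.714 CPM (log2 fold change 0.37, edgeR adjusted p = 0.000348).

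Of the class II and III PI3Ks and other phosphoinositide kinases, 15 of 16 genes were tested, with 3 called higher, 3 lower and a median of 0.02. The PIP5K enzymes make the lipid substrate of class I PI3K, and they moved in both directions. Pip5k1a was at 90.5, 85.2 and 88.5 CPM with DMSO and at 63.3, 65.7 and 64.5 CPM with NUP-17d (log2 fold change -0.45, edgeR adjusted p = 8.33e-10). Pip5k1b went from 53.7 ± 1.38 to 40.8 ± 0.129 CPM (log2 fold change -0.40, edgeR adjusted p = 4.23e-08). Pip5k1c, named after its values were seen, went from 90.8 ± 4.66 to 104.8 ± 3.12 CPM (log2 fold change 0.21, edgeR adjusted p = 0.000261). Pip4k2c, which acts on another phosphoinositide, was higher (58.9 ± 1.79 to 68.5 ± 1.56 CPM, log2 fold change 0.22, edgeR adjusted p = 0.000158).

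Of the other phosphoinositide phosphatases, 20 of 21 genes were tested, with 4 called higher, 3 lower and a median of 0.06. Mtmr3, a myotubularin that removes the D3 phosphate, was at 641.3, 612.1 and 599.4 CPM with DMSO and 461.2, 422.2 and 436.9 CPM with NUP-17d. It fell by 0.49 on the log2 scale (edgeR adjusted p = 5.08e-11). Inpp4a, which removes the 4-phosphate from the product of SHIP, rose from 18.6 ± 0.871 to 22.2 ± 1.6 CPM (edgeR adjusted p = 0.00342). Ocrl, a 5-phosphatase, rose from 35.8 ± 1.22 to 40.6 ± 0.460 CPM (edgeR adjusted p = 0.00413).

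All 20 proteins that bind D3 phosphoinositides were tested, with 7 called higher, 3 lower and a median of 0.09. Cyth3, an exchange factor for Arf proteins with a PH domain, was at 195.1, 191.9 and 200.2 CPM with DMSO and at 134.5, 129.2 and 128.6 CPM with NUP-17d (log2 fold change -0.58, edgeR adjusted p = 5.23e-13). Plek2, the named target of the compound, was at 51.1, 50.9 and 55.9 CPM with DMSO and at 39.9, 38.5 and 41.2 CPM with NUP-17d (log2 fold change -0.40, edgeR adjusted p = 1.78e-07). With library totals only the value for Plek2 was -0.13 (edgeR adjusted p = 0.0262). Its paralog Plek moved the other way, from 229.5 ± 10.2 to 295.8 ± 4.44 CPM (log2 fold change 0.37, edgeR adjusted p = 6.69e-09). The groups of Cyth3, Plek2 and Plek did not overlap.

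**Figure D5:**
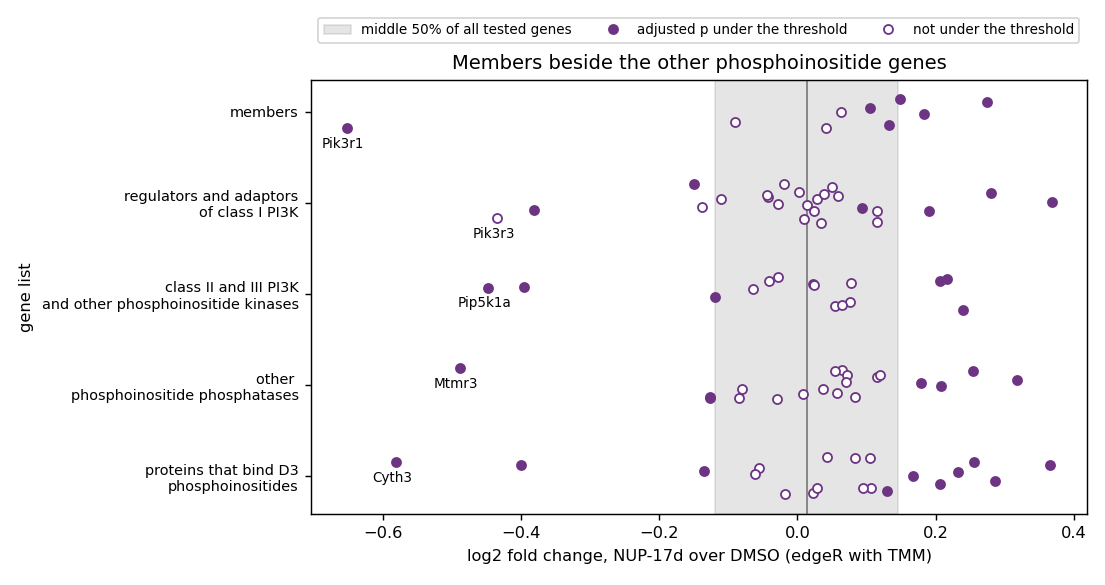
Log2 fold change of NUP-17d over DMSO from edgeR with TMM (x axis) for the 9 members and for each gene of 4 other lists (y axis, spread vertically for legibility); filled points passed the adjusted p threshold of 0.05, and the grey band holds the middle of all tested genes. Pik3r1 at -0.65 is lower than every gene of the other lists, of which Cyth3 at -0.58 is next.

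The genes with a profile over the 6 cultures most like that of Pik3r1 were found among 8456 tested genes with a mean of at least 10 CPM, by the root mean square difference of centred log2 CPM. They were Arhgef12 (0.0112), 1810013L24Rik (0.0192) and Tab3 (0.0192). With cultures of a group this close, the measure mostly compares the size of the change between groups. The log2 fold changes of these genes were -0.655, -0.649 and -0.664, beside -0.653 for Pik3r1. Close matches are likely among so many genes and show no link between them. Arhgef12, an exchange factor for RhoA, went from 236.1 ± 4.08 to 149.9 ± 5.19 CPM. For Pik3cd, the member called higher with the lowest p, they were Spast (0.00874), Il17ra (0.0116) and Erbin (0.0120). Il17ra, the receptor of interleukin-17A, went from 89.6 ± 2.14 to 98.5 ± 2.54 CPM.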

How the data were processed

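RNA of 6 cultures (3 DMSO, 3 NUP-17d, grouped by the treatment label) was compared. The authors deposited expected counts, not normalized, of which 27.8% to 28.5% per culture are not whole. They also deposited FPKM values, scaled by length and library total, and a mean transcript length per gene (Pik3r1 shifts of this length are given as values). The labels name mm10; the aligner and counting program are not given in the sources used here. The study's methods name a stranded kit, whereas the labels' protocol names none, so reads of genes on opposite strands may not have been told apart. A gene not listed in a culture was taken as 0.

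Expected counts were rounded and tested with edgeR 4.0.16 in R 4.3.3 (filterByExpr, TMM, quasi-likelihood test, Benjamini-Hochberg over 12306 genes, threshold 0.05). Ratios of FPKM within cultures were compared by exact permutation (scipy 1.17.1). The common biological coefficient of variation was 2.95%. Alternatives were scaling by totals only, RLE factors, TMM without hemoglobin genes, no filter, DESeq2 1.42.0, limma 3.58.1 on log2 FPKM with a pseudocount of 1 or 0.1 (mean FPKM at least 1), a replicate block, and the removal of 1 culture at a time. The fits were tested on simulated counts with balanced rises and falls and no shift in library composition, so that test cannot tell between the scalings. The methods of the study name no test for single genes.

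The members and lists were chosen with earlier results of these data known. Named genes are the members, the 3 genes of each list with the lowest p, Plek2, Plek, and the 3 genes most like Pik3r1 and Pik3cd in profile. Pik3r3, Pik3r6 and Pip5k1c fall outside this rule and were named after their values were seen. Genes are named by the symbols and Entrez identifiers of the deposited tables, and coordinates and promoters come from RefSeq, GRCm38.p6.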

Additional observations from a re-analysis of the deposited data

How the results depend on the processing

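Pik3r1, Pik3cd and Inpp5d kept their direction and call in every alternative run, as did the genes of the other lists named by rule and Pip5k1c. Their values moved with scaling. With library totals only Pik3cd went from 0.15 to 0.42, Inpp5d from 0.13 to 0.40, Pip5k1a from -0.45 to -0.18, Pip5k1b from -0.40 to -0.13, Mtmr3 from -0.49 to -0.22 and Cyth3 from -0.58 to -0.32 (log2). Pik3r6, not called in any alternative, changed sign from -0.14 to 0.13. In the same setting 9115 genes were called (8458 higher and 657 lower, beside 2019 and 2327 with TMM), 8 members were higher, and 74 genes of the other lists were called beside 29. limma on log2(FPKM + 1) called 8494 genes (7895 higher, 599 lower), 8 members higher and 73 list genes, and on log2(FPKM + 0.1) it called 8480 (7880 higher, 600 lower), 8 members higher and 73 list genes. These 3 settings do not correct for composition, and the median log2 fold change of all genes was 0.28, 0.24 and 0.27 in them. Pik3cb changed sign in them, to 0.18, 0.17 (limma, + 1) and 0.18. DESeq2 called 1162 genes higher and 2 members higher, Pik3cd and Inpp5d. RLE factors left 4 members higher, without Pik3cg. Leaving out 1 culture gave 3713 to 4008 called genes, 3 to 4 members higher, 1 member lower and 25 to 29 list genes. The 3 members were found without DMSO culture 1, DMSO culture 3 or NUP-17d culture 2.

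Same-numbered cultures did not deviate together (correlations 0.0335, -0.0210 and -0.0324), and no label says that the numbers pair them. With the replicate number as a block, 4543 genes were called, 5 members were higher and 1 was lower, and no call of a member changed. At this depth the members with few reads, such as Inppl1, were measured least precisely.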
